A study of Rattus norvegicus with 28 samples.

Results

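The genes described are the solute carrier (Slc) genes of the rat, read on an Affymetrix array of the terminal ileum, the last stretch of the small bowel, in newborn pups. A gene was taken when its array probe sets carried a single platform symbol starting with Slc and a family number. Slc2a2, Slc2a5, Slc5a1, Slc15a1, Slc10a2 and Slc9a3, the absorptive carriers of sugars, peptides, bile acids and sodium, were left out of the set and are given as a comparison. Each gene was read from its probe set with the highest mean, and it was kept when that mean lay above the 40th percentile of all non-control probe sets, a signal of 24.0. Of 114 Slc genes on the array, 82 were kept, from 33 of 37 families, and 3185 genes of all kinds passed the same level. The members just inside the level were Slc15a2, Slc52a3 and Slc30a1, with signals from 25.1 to 26.4 at their mean. Those just outside were Slc35f6 at 22.3 and Slc1a3 and Slc18a2 at 22.7 each.

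The series concerns how formula feeding with hypoxia leads to necrotizing enterocolitis, in which the bowel of the newborn becomes inflamed and may die. Each of its 28 arrays came from a separate pup. The 4 groups named breast-fed day 1 to day 4 held 3 pups each, killed at that day of life. The 4 groups named formula and hypoxia day 1 to day 4 also held 3 pups each and received formula and hypoxic stress 3 times a day. The last group held 4 unfed newborns, treated here as day 0. Strain and sex are not stated in the labels. No group had formula alone or hypoxia alone, so what each did cannot be told apart. The arrays hold RNA of the whole tissue, and fewer cells of a type cannot be told apart from less RNA per cell.

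Solute carriers are membrane proteins that move small molecules without splitting ATP, either down a gradient or coupled to the flow of another ion. A family number groups carriers by sequence, and members of a family often share a class of substrate. In the ileum they take up amino acids, vitamins and metals at the brush border and pass them to the blood at the basolateral side. Others act inside the cell, in mitochondria, peroxisomes, vesicles and the endoplasmic reticulum, and some of those measured belong to nerve endings or red cells.

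Of 15 listed markers of epithelium, 12 were measured, with Fabp2 and Lgals4 among the most abundant of these. Breast-fed day 3 replicate 3 had lost 69 abundant probe sets and breast-fed day 4 replicate 2 had lost 48, against 0 to 2 on the others. The settings were a signal of 500 for abundant and 16-fold for lost, and 0 Slc members were counted as lost on any array. Dim members could still read low: Slc4a3 went as low as 4.92 under formula and hypoxia, against a median of 89.3 in that regimen. The sample accessions were split into a pair of runs of 19 and 9 arrays. Unfed newborn replicate 2 was counted in the second, though its accession lies apart from the rest of that run. All 3 breast-fed day 4 arrays lie in the second, with 1 of 3 formula and hypoxia day 4 arrays. What the runs stand for is not stated in the labels. Signals below are quantile normalized and linear, and differences are on the log2(signal + 8) scale, which understates the change of low genes. Tests are limma's, with Benjamini-Hochberg adjustment over all 3185 genes, and a gene was called at an adjusted p under 0.05.

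The first comparison asks how the carriers differed between pups on formula and hypoxia and breast-fed pups of the same age. Averaged over days 1 to 4, 4 of 82 members passed the test. Slc41a3, a magnesium transporter, and Slc19a1, the reduced folate carrier, were higher under formula and hypoxia. Slc16a6, a monocarboxylate transporter known for the export of ketone bodies from liver, and Slc30a2, a vesicular zinc transporter, were lower. The share called was 4.88%, against a background of 11.4% of all genes (4.68% higher and 6.75% lower). The split of the calls moved with the scaling: under common median scaling it was 1 member higher and 3 lower (90 and 245 of all genes), and with the deposited scaling 2 higher and 1 lower (129 and 153 of all genes). The median difference of the 82 members was 0.07, against 0.02 over all genes tested, with 49 members positive and 33 negative. No member differed by more than 2-fold in this mean, and the differences ran from -0.74 to 0.70.

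**Figure D1:**
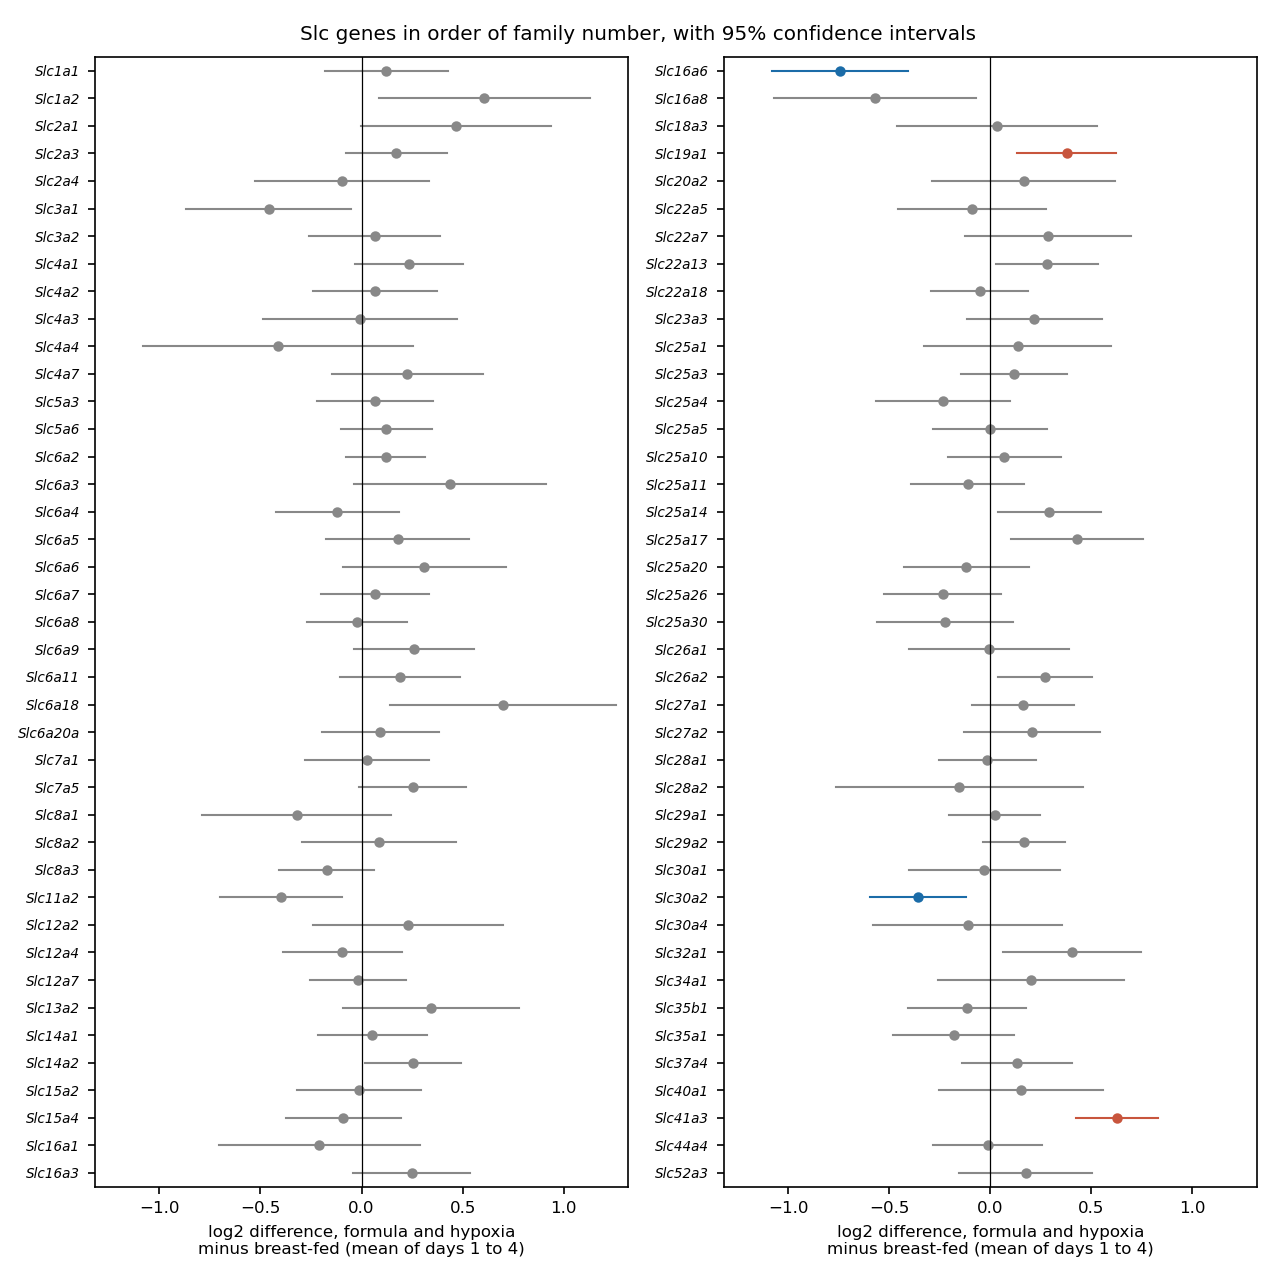
Difference of every measured Slc gene between regimens, formula and hypoxia minus breast-fed averaged over days 1 to 4, on the log2(signal + 8) scale (horizontal axis), with genes in order of family number (vertical axis). Points are estimates and bars 95% confidence intervals; the called genes are coloured, red for higher (Slc41a3 at 0.63 and Slc19a1 at 0.38) and blue for lower (Slc16a6 at -0.74 and Slc30a2 at -0.36).

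Slc41a3 separated the regimens on every day. Among breast-fed pups its day 1 signals were 48.9, 60.4 and 46.1, its day 2 signals 75.8, 68.2 and 85.2, its day 3 signals 43.0, 37.8 and 44.0, and its day 4 signals 45.9, 41.0 and 43.4. Pups on formula and hypoxia gave 110.2, 63.2 and 77.5 (day 1), 137.0, 130.8 and 137.6 (day 2), 83.6, 55.7 and 70.2 (day 3), and 64.9, 73.9 and 58.0 (day 4). The lowest formula and hypoxia array lay above the highest breast-fed array on each of the 4 days, and both regimens were highest on day 2. Slc41a3 was the 1 member of 82 with such a separation, against 0.942% of all genes. The 4 unfed newborns, at 76.0, 70.6, 58.3 and 54.5, overlapped the day 1 arrays of both regimens. The difference over the 4 days was 0.63 (SE 0.10, n = 12 against 12 arrays), a 1.54-fold rise with a 95% interval of 1.34 to 1.78 (limma adjusted p = 0.000143). In the first accession run alone, which has no breast-fed day 4 array, the difference over days 1 to 3 was 0.71 (adjusted p = 0.00569). In the second, where only day 4 has both regimens, with 1 formula and hypoxia array, it was 0.36. The array has 1 other member of the family, Slc41a2, which lay below the level.

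The promoter of Slc41a3 is shown because the members' promoters were searched for the core of the hypoxia response element, ACGTG, on both strands. It lies at chr4:124684717-124684966 on the + strand of GRCr8 (RefSeq), the 250 bases before the gene's start, and capitals mark the match.
Slc41a3: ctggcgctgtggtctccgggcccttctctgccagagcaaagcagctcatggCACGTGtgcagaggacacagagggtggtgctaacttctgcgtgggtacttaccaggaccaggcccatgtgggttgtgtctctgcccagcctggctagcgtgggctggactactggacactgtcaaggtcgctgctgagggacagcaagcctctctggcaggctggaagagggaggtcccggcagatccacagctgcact
The core occurs here on both strands, as overlapping matches that begin 199 and 198 bases before the start. Of the 82 members, 69 matched the RefSeq promoter table, and 16 of these (23.2%) held ACGTG in the same window, against 16.6% of all 33469 promoters. A GC box, CCGCCC on either strand, stood in 56.5% of member promoters against 30.5% of all, and a TATA box, TATAAA on either strand, in 7.25% against 12.9%. The median GC content was 61.6% in members and 51.2% in all promoters. All 33469 promoters are those of the whole table, whereas the members were limited to genes on the array and above the level. The shares among the tested genes were not computed, so these gaps do not set the carriers apart from other tested genes. These matches describe the letters only.

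Slc16a6 was the member with the largest fall. Its day 1 signals in breast-fed pups were 50.5, 27.5 and 27.1, its day 2 signals 27.7, 32.5 and 22.7, its day 3 signals 44.3, 52.3 and 76.4, and its day 4 signals 42.3, 85.8 and 45.5. Pups on formula and hypoxia gave 29.7, 29.3 and 24.2 (day 1), 13.2, 17.7 and 21.4 (day 2), 24.5, 32.01 and 28.1 (day 3), and 4.47, 21.6 and 27.9 (day 4). The regimens overlapped on day 1 and did not overlap on days 2, 3 and 4. The highest readings were those of breast-fed day 4 replicate 2 and day 3 replicate 3, the pair of arrays that had lost probe sets. The unfed newborns, at 19.1, 31.0, 22.6 and 34.1, overlapped the day 1 arrays of both regimens. The difference over days was -0.74 (SE 0.16, n = 12 against 12), 1.67-fold lower with an interval of 1.32 to 2.12 (limma adjusted p = 0.00371), and all 12 formula and hypoxia arrays lay below the breast-fed mean of their day. With that pair of arrays left out the difference was -0.62 (adjusted p = 0.0182). With the accession run as a term it was -0.61 (adjusted p = 0.0384). Within the first run, which has both regimens on days 1 to 3 only, it was -0.49 (adjusted p = 0.161). The signal is close to the level threshold of 24.0, so the array measured this gene near its limit. The other monocarboxylate carriers did not pass the test: Slc16a8 stood at -0.57 (adjusted p = 0.128), Slc16a1, the main lactate and butyrate carrier of the gut, at -0.21 and Slc16a3 at 0.25.

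Slc19a1 takes up reduced folates in exchange for anions. Its breast-fed signals ran from 209.9 to 331.6 and its formula and hypoxia signals from 266.3 to 487.7. The group means were 258.9 ± 46.0, 307.8 ± 25.9, 270.3 ± 39.4 and 291.7 ± 57.5 (SD, n = 3) on days 1 to 4 in breast-fed pups. Under formula and hypoxia they were 372.9 ± 24.2, 408.0 ± 76.0, 363.9 ± 86.2 and 334.9 ± 59.4. Of 12 formula and hypoxia arrays, 11 lay above the mean of the breast-fed pups of that day, and the exception was day 4 replicate 3. The difference over days was 0.38 (SE 0.12), a 1.30-fold rise (1.10 to 1.54, limma adjusted p = 0.0395). A second probe set of the gene gave 0.31. The call was lost when any of 15 of the 28 arrays was left out singly, with arrays scaled to a common median (0.25, adjusted p = 0.201), with the deposited scaling (0.35, adjusted p = 0.0869) and with the accession run as a term (0.34, adjusted p = 0.146). In the first run alone, which has both regimens on days 1 to 3 only, the difference was 0.51 (adjusted p = 0.0412). In the second run, which has both regimens on day 4 only and 1 formula and hypoxia array, it was -0.11, against 0.20 for day 4 over all arrays.

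Slc30a2 loads zinc into secretory vesicles. Its breast-fed group means were 377.7 ± 116.2, 475.4 ± 26.9, 397.8 ± 89.7 and 369.3 ± 19.4 (SD, n = 3) on days 1 to 4, and its formula and hypoxia means 320.6 ± 24.3, 411.5 ± 51.2, 345.3 ± 43.1 and 207.0 ± 55.4. On day 4 the formula and hypoxia arrays read 156.6, 266.3 and 198.0 and the breast-fed arrays 388.7, 349.9 and 369.2. The regimens did not overlap on days 2 and 4 and overlapped on days 1 and 3. The difference over days was -0.36 (SE 0.12, n = 12 against 12), 1.28-fold lower (1.09 to 1.51, limma adjusted p = 0.0438), with 12 of 12 arrays below the breast-fed mean of their day. Within the first run, which has no breast-fed day 4 array, it was -0.07 over days 1 to 3 (adjusted p = 0.843). That value leaves out day 4, where the difference over all arrays was -0.84. With the run as a term the difference over days was -0.28 (adjusted p = 0.208), and the call was lost in both. It was also lost when any of 21 of the 28 arrays was left out singly, with the deposited scaling (adjusted p = 0.0601), with array weights (adjusted p = 0.0831) and without both arrays that lost probe sets (adjusted p = 0.0928). The other zinc carriers did not pass: Slc30a1, the plasma membrane zinc exporter, stood at -0.03 and Slc30a4 at -0.11.

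**Figure D2:**
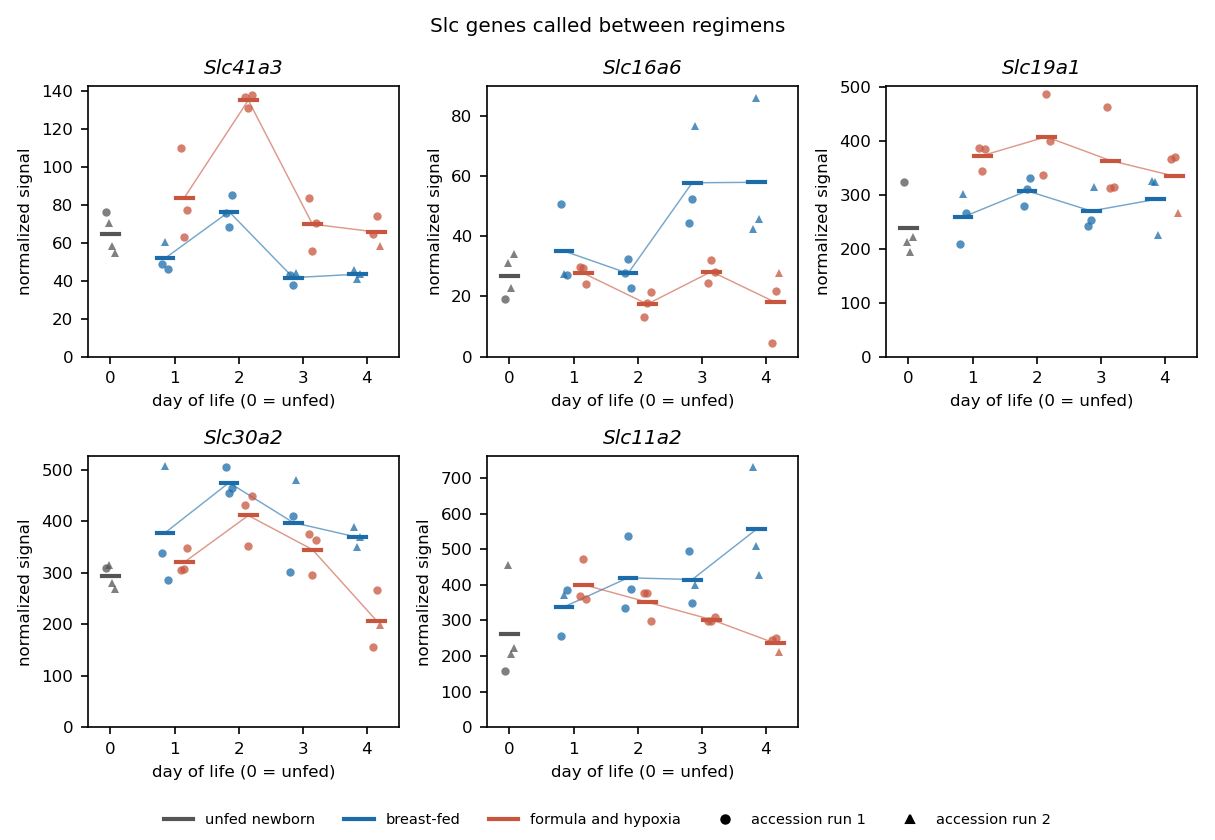
Normalized signal (vertical axis, linear from 0) by day of life (horizontal axis, day 0 being unfed newborns) of the 5 Slc genes called between regimens, over the mean of days or on day 4. Points are single arrays, circles for the first accession run and triangles for the second, and bars are group means; for Slc41a3 all formula and hypoxia points lie above the breast-fed points of their day, and all 3 breast-fed points of day 4 are triangles.

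Markers of other cells differed between the regimens too. Of 5 measured mast cell markers, 3 were lower over the mean of days (Mcpt4, Mcpt1 and Cpa3). Their summed signal was 954.5 to 1814 on day 1 and 1022 to 1394 on day 4 in breast-fed pups, and 467.8 to 980.2 and 295.7 to 476.9 under formula and hypoxia. Of the 4 red cell markers 3 were higher (Hbb-b1, Alas2 and Hbb; 1 under common median scaling), the fourth being Slc4a1 itself. Their summed signal was 8975 to 11670 on day 2 and 7692 to 10220 on day 3 in breast-fed pups, and 14360 to 19540 and 12370 to 17880 under formula and hypoxia. Of 7 smooth muscle markers 1 was lower (Myl9, in neither other scaling), and 1 of 4 macrophage and granulocyte markers (S100a9), 1 of 3 fat tissue markers (Lpl) and 1 of 3 exocrine pancreas markers (Prss1) were higher. None of 12 epithelial, 7 neuronal and glial, 2 lymphocyte and 2 endothelial markers was called, and common median scaling added 1 lower epithelial marker. The part of these cells in the results on Slc41a3, Slc16a6, Slc19a1 and Slc30a2 was not tested.

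On single days few members passed. On day 1, 0 of 82 were called by limma against 0.283% of all genes. At an unadjusted p under 0.05 there were 12 members (14.6%), 10 higher and 2 lower, against 9.14% of all genes. The largest day 1 difference was that of Slc3a1, the heavy subunit of the carrier of cystine and basic amino acids, at -1.41 (SE 0.40, limma adjusted p = 0.162). On day 2, 1 member was called, Slc41a3 at 0.77 (SE 0.20, limma adjusted p = 0.0493), against 1.48% of all genes and 0.691% higher. That call was lost without any of 23 of the 28 arrays, while the difference stayed between 0.70 and 0.84. On day 3, 0 members were called by limma against 2.01% of all genes, and 5 had an unadjusted p under 0.05 (6.10%), against 16.6%.

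On day 4 there were 2 calls, both lower (2.44% of members), against 1.98% of all genes called and 1.29% called lower. The genes were Slc16a6 and Slc11a2. Slc11a2 encodes the divalent metal transporter that brings iron from the gut lumen into the epithelial cell. Its breast-fed signals on day 4 were 731.8, 507.9 and 426.9 and its formula and hypoxia signals 243.9, 251.5 and 210.2. The groups did not overlap on day 4. On day 1 the breast-fed arrays read 256.6, 372.2 and 384.3 and the formula and hypoxia arrays 369.2, 473.8 and 358.8. The change of the regimen difference from day 1 to day 4 was -1.43 and was not called (limma adjusted p = 0.238). The day 4 difference was -1.18 (SE 0.29), 2.27-fold lower (1.49 to 3.45, limma adjusted p = 0.0364), and the gene's other probe sets gave -1.23 and -1.16. Over the mean of days Slc11a2 did not pass, at -0.40 (adjusted p = 0.0815), where its other probe sets gave -0.59 and -0.63. Slc16a6 stood at -1.42 on day 4 (SE 0.33, limma adjusted p = 0.0253), and the array at 4.47 is formula and hypoxia day 4 replicate 1. Without that array the Slc16a6 difference was -0.95 (adjusted p = 0.220), and without breast-fed day 4 replicate 2, which had lost probe sets, it was -1.13 (adjusted p = 0.139). The Slc11a2 call was lost without any of 5 arrays of day 4 (every one but breast-fed replicate 3), with differences of -0.97 to -1.23. All breast-fed day 4 arrays are of the second run. With the run as a term the differences were -1.15 for Slc16a6 (adjusted p = 0.155) and -1.05 for Slc11a2 (adjusted p = 0.170). Within the second run they were -0.82 and -1.33, from 3 arrays against 1 (both adjusted p = 0.998).

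The change of the regimen difference from day 1 to day 4 was tested directly. In that test 0 members were called by limma, against 0.157% of all genes. At an unadjusted p under 0.05 there were 6 members (7.32%), 1 positive and 5 negative, against 7.06% of all genes. The median change of the members was -0.16, against -0.04 over all genes.

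Families were described by the differences of their measured members over the mean of days. The sodium- and chloride-coupled carriers of family 6, which move neurotransmitters, amino acids, creatine and taurine, had 11 members of 14 on the array, 9 of them positive (10 with the deposited scaling), with a median of 0.18 and a range of -0.12 for Slc6a4 to 0.70 for Slc6a18. None of these passed, and Slc6a18 had an adjusted p of 0.0971. The 11 mitochondrial and related carriers of family 25 had a median of 0.00, between -0.24 for Slc25a26 and 0.43 for Slc25a17. The most abundant of them, Slc25a5 and Slc25a3, the adenine nucleotide and phosphate carriers of oxidative phosphorylation, differed by 0.00 and 0.12. The family values come from 1 probe set per gene. Other probe sets above the level went below the low ends given, at -0.57 (SE 0.17) for Slc6a4 and -0.36 (SE 0.20) for Slc25a10.

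Family 4, of bicarbonate and anion exchangers, had 5 members between -0.41 (Slc4a4) and 0.23 (Slc4a1). The facilitated sugar carriers of family 2 had 3 members between -0.10 (Slc2a4) and 0.47 (Slc2a1). The organic ion carriers of family 22 had 4 members between -0.09 (Slc22a5, the carnitine transporter) and 0.29 (Slc22a7). The sodium-calcium exchangers of family 8 had 3 members between -0.32 and 0.09, and the cation-chloride cotransporters of family 12 had 3 between -0.10 and 0.23. Among the families with 3 or more measured members, family 16 had the lowest median, -0.39 over 4 members, and the 3 members of family 30 were all negative, though 1 of them turned positive with the deposited scaling. The medians of families 4, 12 and 25, all within 0.10 of 0, changed sign between scalings. Apart from Slc16a6 and Slc30a2, no member of these families was called. Other probe sets above the level gave 0.10 and 0.21 for Slc8a1 and -0.61 for Slc4a2, against -0.32 and 0.07 in those used. They gave -0.15 for Slc22a7 and -0.10 and -0.01 for Slc12a2, the highest members of families 22 and 12 by the probe sets used.

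Heteromeric amino acid carriers pair a heavy subunit of family 3 with a light subunit of family 7. Slc3a2 and its light partner Slc7a5, which carry large neutral amino acids, were both measured, and differed between regimens by 0.06 and 0.25 without passing. A second probe set of Slc3a2 went the other way, at -0.34 (SE 0.20). On day 4 it gave -1.07 (SE 0.40), where the probe set used gave 0.01. Over the 9 group means the levels of the probe sets used had a correlation of 0.715, given as a description of points that share arrays. The light partner of Slc3a1 was not measured.

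**Figure D3:**
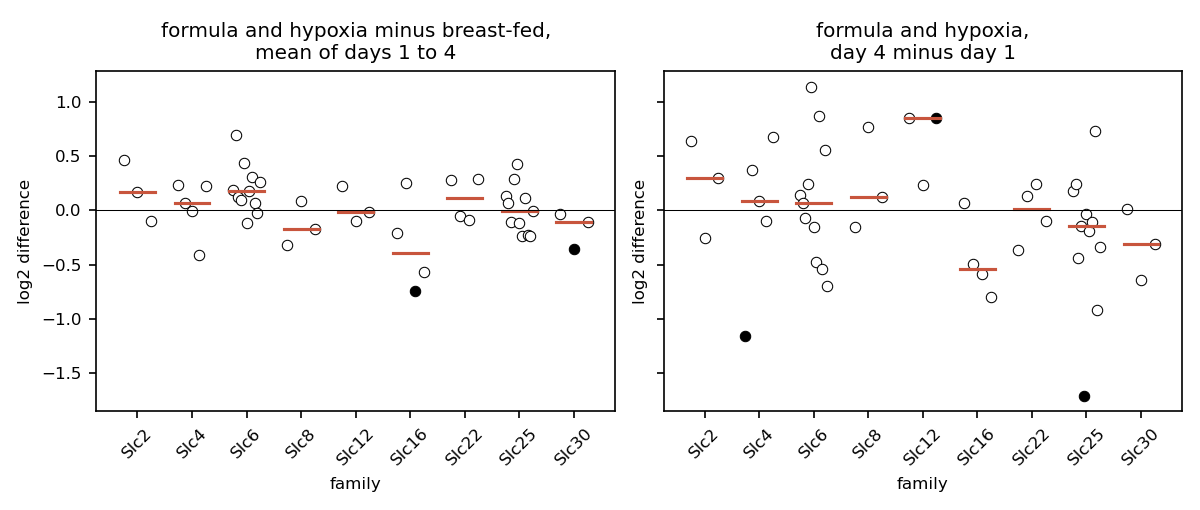
Log2 differences (vertical axis) of single members of the families with 3 or more measured genes (horizontal axis), for formula and hypoxia minus breast-fed over the mean of days (left) and for day 4 minus day 1 under formula and hypoxia (right). Each circle is a gene, filled where called, and bars are family medians; the family 16 median is -0.39 on the left, and the filled points on the right are Slc4a1, Slc12a7 and Slc25a17.

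The next comparisons set day 1 against the unfed newborn. On day 1 of breast feeding 0 members were called by limma, against 0.00% of all genes, and 5 had an unadjusted p under 0.05 (6.10%), against 5.84%. On day 1 of formula and hypoxia 0 members were called by limma, against 0.408% of all genes. Here 13 members had an unadjusted p under 0.05 (15.9%), all of them higher than in unfed pups, against 9.98% of all genes in either direction. The share of all genes that were higher at that p was not counted. The direction moved with the scaling. As reported 60 members were positive, under common median scaling 54 and with the deposited scaling 66. The median of all genes was 0.05, -0.02 and 0.13 in that order. Among these, Slc5a6, the sodium-coupled carrier of biotin and pantothenate, read 232.4, 228.7, 327.2 and 293.8 in unfed pups. It read 405.3, 492.0 and 469.1 on day 1 of formula and hypoxia, without overlap, a difference of 0.75 (SE 0.20, limma adjusted p = 0.148). Both comparisons share the unfed arrays, of which only replicate 1 is of the first accession run. All formula and hypoxia day 1 arrays are of the first run, so run and group can hardly be told apart in that comparison.

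Within breast feeding, 0 members were called by limma between day 4 and day 1, against 0.314% of all genes. At an unadjusted p under 0.05 there were 12 members (14.6%), 9 higher and 3 lower, against 17.0% of all genes. All breast-fed day 4 arrays are of the second run and 2 of 3 day 1 arrays of the first.

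Within formula and hypoxia, 6 of 82 members changed from day 1 to day 4 (7.32%), against 13.4% of all genes (6.62% higher and 6.78% lower). Common median scaling gave 1 member higher and 5 lower (123 and 211 of all genes), and with the deposited scaling 3 and 3 (182 and 126). Slc40a1, the iron exporter ferroportin, Slc12a7, a potassium-chloride cotransporter, and Slc3a1 rose. Slc25a17, a peroxisomal carrier of coenzyme A and other cofactors, Slc4a1, the band 3 anion exchanger of red cells, and Slc37a4, the glucose-6-phosphate transporter of the endoplasmic reticulum, fell. The median over the 82 members was -0.03, against 0.00 over all genes. In the direct test of the change of the regimen difference, none of these 6 was called. There Slc3a1 stood at 1.77 (limma adjusted p = 0.327), Slc25a17 at -0.88 (limma adjusted p = 0.720) and Slc40a1 at 0.71 (limma adjusted p = 0.854).

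Slc40a1 had the widest spread of group means of all members. Pups on formula and hypoxia gave day 1 signals of 144.8, 167.2 and 165.1, day 2 signals of 337.5, 216.7 and 261.0, day 3 signals of 641.4, 768.5 and 729.1, and day 4 signals of 778.0, 377.4 and 800.9. The day 4 arrays lay above all day 1 arrays, and day 4 replicate 2 lay apart from the other two. The unfed newborns read 98.1, 194.7, 182.9 and 161.2, a range that holds the day 1 arrays. The change was 1.91 (SE 0.40, n = 3 against 3), a 3.75-fold rise (2.13 to 6.60, limma adjusted p = 0.00287), and the gene's other probe set gave 1.65. Breast-fed pups read 339.1, 251.0 and 138.2 on day 1 and 268.1, 817.8 and 694.6 on day 4, a change of 1.20 that did not pass (SE 0.40, adjusted p = 0.140). Between the regimens the gene did not pass over the mean of days (0.15, adjusted p = 0.658). The promoters of Slc40a1 and Slc25a17, the members that rose and fell furthest here, are shown side by side, each being the 250 bases before the start on the - strand of GRCr8 (RefSeq), at chr9:55543461-55543710 and chr7:114767164-114767413, with GC boxes on either strand in capitals.
Slc40a1: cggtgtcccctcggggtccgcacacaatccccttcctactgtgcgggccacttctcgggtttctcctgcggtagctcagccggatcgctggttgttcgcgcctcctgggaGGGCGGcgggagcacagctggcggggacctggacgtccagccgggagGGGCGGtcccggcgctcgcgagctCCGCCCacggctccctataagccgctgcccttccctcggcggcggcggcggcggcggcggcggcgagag
Slc25a17: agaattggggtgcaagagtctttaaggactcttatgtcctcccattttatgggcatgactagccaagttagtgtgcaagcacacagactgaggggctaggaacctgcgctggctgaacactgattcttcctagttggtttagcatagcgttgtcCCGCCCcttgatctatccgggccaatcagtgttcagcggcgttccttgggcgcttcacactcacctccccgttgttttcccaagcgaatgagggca
The Slc40a1 window held 3 GC boxes and a GC content of 74.0%, and the Slc25a17 window 1 GC box and 52.4%. Neither window held ACGTG.

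Slc25a17 fell furthest. Pups on formula and hypoxia gave day 1 signals of 916.3, 1017 and 1423, day 2 signals of 1525, 1064 and 1054, day 3 signals of 817.8, 568.0 and 676.4, and day 4 signals of 209.3, 427.5 and 401.4. Every day 4 array lay below every day 1 array, and the arrays of day 3 lay between. The change was -1.71 (SE 0.32), 3.27-fold lower (2.08 to 5.13, limma adjusted p = 0.00155). In breast-fed pups it read 609.1, 667.4 and 672.3 on day 1 and 447.3, 231.2 and 459.2 on day 4, a change of -0.83 that did not pass (adjusted p = 0.204). Within the first accession run the formula and hypoxia change was -1.85 (adjusted p = 0.00223).

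Slc37a4 read 1056, 829.0 and 1363 on day 1 of formula and hypoxia and 355.5, 490.2 and 702.2 on day 4, without overlap. The change was -1.08 (SE 0.26), 2.12-fold lower (1.45 to 3.08, limma adjusted p = 0.00904), and the other probe set gave -1.15. Without formula and hypoxia day 4 replicate 1 it was -0.85 (adjusted p = 0.0836). The protein hands glucose-6-phosphate to glucose-6-phosphatase, a step of glucose release. In breast-fed pups the change was -0.14.

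Slc4a1 read 188.7, 127.4 and 232.4 on day 1 and 62.4, 83.4 and 81.4 on day 4, again without overlap. The change was -1.16 (SE 0.26), 2.23-fold lower (1.54 to 3.24, limma adjusted p = 0.00527). The gene's other probe sets, of lower signal, gave -0.25 and -0.33. Slc4a1 is itself 1 of the 4 measured red cell markers, and 2 of these 4, Slc4a1 and Alas2, fell between the same days (1 with the deposited scaling). The summed signal of the 4 red cell markers was 16810 to 19400 on day 1 and 12120 to 13880 on day 4 of formula and hypoxia, and 13290 to 16000 and 11480 to 13830 in breast-fed pups. The part of red cells in the Slc4a1 result was not tested.

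Slc12a7 read 98.3, 101.4 and 101.4 on day 1 and 199.3, 217.0 and 152.0 on day 4, without overlap. The change was 0.85 (SE 0.23), a 1.80-fold rise (1.30 to 2.51, limma adjusted p = 0.0169), and in breast-fed pups 0.75 (adjusted p = 0.121). Leaving out formula and hypoxia day 4 replicate 1 or 2 gave 0.81 (adjusted p = 0.0780) and 0.75 (adjusted p = 0.0684), and scaling to a common median gave 0.74 (adjusted p = 0.0533). The sodium-potassium-chloride cotransporter Slc12a2, of secretory epithelium, stood at 0.86 with a wider error (SE 0.46) and did not pass. Its other probe sets above the level gave 0.02 and 0.26.

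Slc3a1 read 80.3, 96.9 and 88.9 on day 1 and 93.6, 389.2 and 299.8 on day 4, so that the lowest day 4 array lay within the day 1 range. The change was 1.26 (SE 0.40), a 2.40-fold rise (1.36 to 4.23, limma adjusted p = 0.0352). The call was lost without formula and hypoxia day 1 replicate 1, 2 or 3 or day 4 replicate 2 or 3, and without day 4 replicate 2 the value was 0.87 (adjusted p = 0.192). With the run as a term it was 1.20 (adjusted p = 0.0647), and with common median scaling 1.16 (adjusted p = 0.0634). Within the first run alone it was 1.06. In breast-fed pups the same gene went from 311.3, 217.8 and 226.2 to 164.7, 136.4 and 229.1, a change of -0.50 that did not pass.

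Markers of other cells moved between the same days. Of 7 measured smooth muscle markers 4 rose, Des, Actg2, Myh11 and Acta2 (2 under common median scaling), and the list's summed signal was 7180 to 10140 on day 1 and 12210 to 15840 on day 4. Of 12 measured epithelial markers 2 rose, Krt19 and Krt8 (1 under either other scaling), and 0 fell. Of 5 mast cell markers 1 fell (Mcpt1), as did 1 of 3 exocrine pancreas markers (Pnlip). The part of these cells in the changes of Slc40a1, Slc12a7, Slc3a1, Slc25a17 and Slc37a4 was not tested. By family, the 3 members of family 12 were all positive under each scaling (0.24 to 0.86 as reported). Family 16 ran from -0.80 to 0.07 and family 6 from -0.70 for Slc6a9 to 1.14 for Slc6a3. Family 25 had 3 of 11 members positive. These values come from 1 probe set per gene. Other probe sets above the level gave 0.02 and 0.26 for Slc12a2 and -0.17 for Slc6a3. For Slc25a11 the other probe set gave -1.40 (SE 0.30), where the one used gave -0.44.

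**Figure D4:**
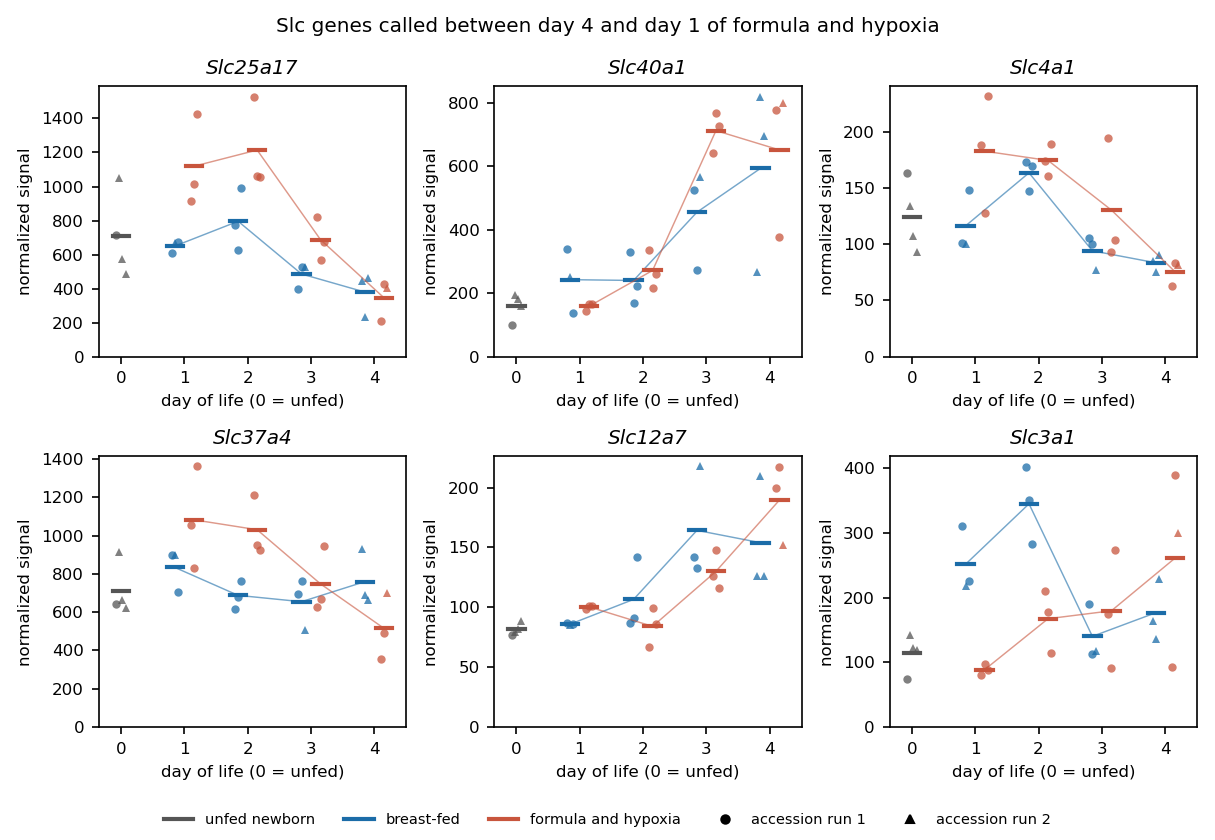
Normalized signal (vertical axis, linear from 0) by day of life (horizontal axis, day 0 being unfed newborns) of the 6 Slc genes called between day 4 and day 1 of formula and hypoxia. Points are single arrays, circles and triangles for the accession runs, and bars are group means; Slc25a17 fell from between 916.3 and 1423 to between 209.3 and 427.5 under formula and hypoxia, and Slc40a1 rose.

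Across all 9 groups, limma's F test called 16 of 82 members (19.5%), against 23.8% of all genes. In order of adjusted p the first 12 were Slc41a3 (adjusted p = 0.000170), Slc40a1, Slc25a17, Slc12a7, Slc5a6, Slc4a1, Slc16a6, Slc30a2, Slc3a1, Slc6a8, Slc27a2 and Slc6a6 (adjusted p = 0.0266). Of the 16, 7 had their lowest mean in the unfed newborn and 5 on day 4 of formula and hypoxia, and 4 had their highest mean on day 2 of formula and hypoxia. Over all 82 members the lowest mean was that of the unfed newborn for 15. It was that of day 1 of breast feeding for 14 and of day 4 of formula and hypoxia for 14. The highest mean was that of day 2 of formula and hypoxia for 14. These group tallies were not made over all genes tested, so they do not set the carriers apart from other genes. The range of the group means had a median of 0.88 over the 82 members, from 0.34 for Slc23a3 to 2.15 for Slc40a1, beside a median SD within groups of 0.35.

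Of the genes this test adds, Slc5a6 went from 270.5 ± 48.2 (SD, n = 4) in unfed pups to 565.4 ± 121.4 on day 4 of breast feeding and 520.1 ± 90.1 on day 4 of formula and hypoxia (n = 3 each). Slc6a8, the creatine transporter, went from 76.1 ± 22.2 to 155.9 ± 44.9 and 144.3 ± 24.8. Slc6a6, the taurine transporter, went from 48.2 ± 12.4 to 129.2 ± 62.5 and 201.4 ± 125.5. For these carriers both regimens ended above the unfed mean, and the arrays of the regimens overlapped on day 4. Slc27a2, which takes up and activates very long chain fatty acids, read 119.1 ± 27.1 in unfed pups and was highest on day 2 of formula and hypoxia, at 462.7, 274.0 and 310.9, before 174.2 ± 79.1 on day 4. Some calls of this F test were lost under other settings. Common median scaling ended that of Slc27a2 (F test adjusted p = 0.0782) and array weights that of Slc6a6 (F test adjusted p = 0.0564). Without both arrays that lost probe sets, Slc16a6 (F test adjusted p = 0.0800) and Slc6a8 (F test adjusted p = 0.0506) were not called. Leaving out single arrays ended some of these calls too, at adjusted p-values of at most 0.0725. They were formula and hypoxia day 4 replicate 1 or 3 for Slc30a2, unfed replicate 1 or 3 for Slc6a8, formula and hypoxia day 4 replicate 3 or unfed replicate 1 for Slc6a6, and formula and hypoxia day 2 replicate 1 or unfed replicate 1 or 3 for Slc27a2.

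**Figure D5:**
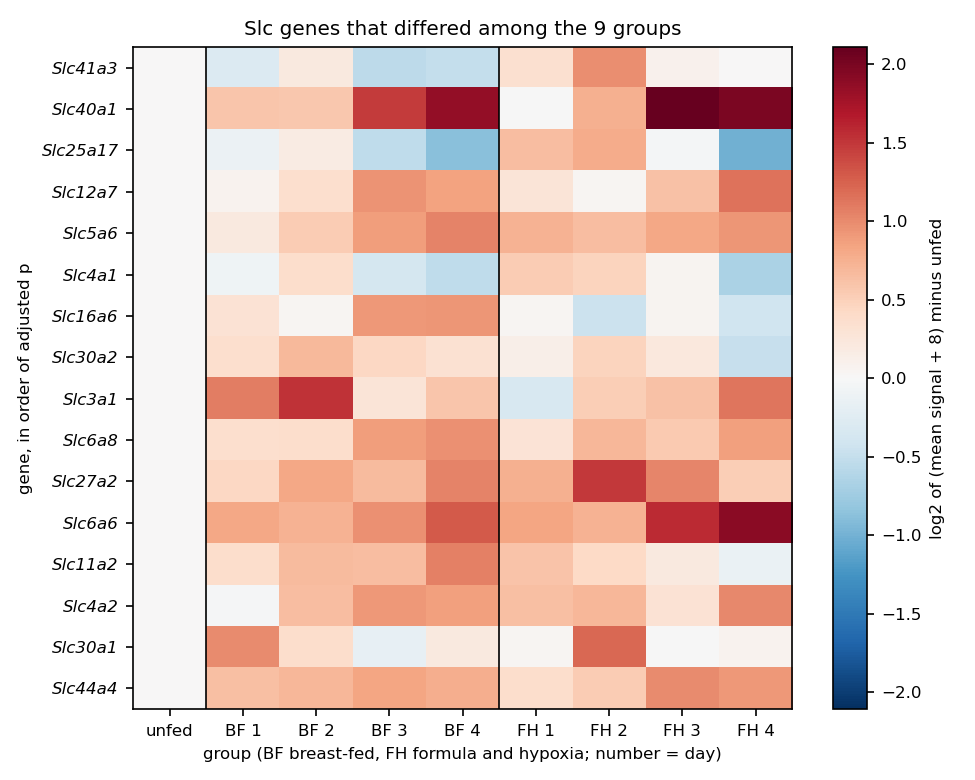
Group means of the 16 Slc genes called among the 9 groups, as log2 of (mean signal + 8) minus the unfed newborn (colour), by gene (vertical axis, in order of adjusted p) and group (horizontal axis). Slc40a1 and Slc6a6 are highest above unfed late in both regimens, and Slc25a17 is below unfed on day 4 in both.

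The absorptive carriers left out of the set were read the same way. Over the mean of days, of these 6, 3 were higher under formula and hypoxia (2 under either other scaling) and 0 lower, with a median of 0.64: Slc2a5 at 1.25, Slc9a3 at 1.06 and Slc15a1 at 0.92. Over all genes tested 4.68% were called higher and 6.75% lower in this mean. The 6 carriers were set apart with earlier results known, so the count is no test of a difference from the 82. Among ATP-driven pumps and channels, 26 of 54 listed genes were measured, 4 of them higher (3 under either other scaling) and 0 lower over the mean of days, led by the potassium channel Kcnk1 at 1.16 and the water channels Aqp8 at 0.70 and Aqp9 at 0.52. Between day 4 and day 1 of formula and hypoxia, 1 of the 6 left-out carriers fell, the glucose carrier Slc2a2 at -2.54. Of the pumps and channels 5 rose, among them the calcium pump genes Atp2a2 at 1.90 and Atp2a3 at 1.39 and the channel gene Aqp7 at 1.58. Over all genes 6.62% were called higher and 6.78% lower between these days. The list of pumps and channels was also chosen with earlier results known, so its counts do not set these genes apart from others.

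Probe sets of one gene did not always move together. Of 24 members with 2 or more probe sets above the level, 15 had the same sign of difference over the mean of days and 9 had mixed signs. One reading far from its group was that of Slc18a3, the vesicular acetylcholine transporter, at 676.4 in breast-fed day 2 replicate 3, against 80.6 and 86.8 in the other two arrays of that group.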

How the data were processed

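Gene expression was measured in terminal ileum of 28 rat pups, 1 Affymetrix array each, in 9 groups taken from the labels. The authors deposited 1 intensity per probe set and array on a linear scale. From the values, 26 arrays had been scaled to a common trimmed mean (150.2 to 150.5), while 2 breast-fed arrays stood at 109.2 and 209.2. The software and the summary method are not stated in the labels or the table. The platform annotation gave 1 symbol for 7006 of the probe sets, several for 308 and none for 1426; control probe sets (59) were left out, and all 82 members matched a RefSeq symbol. Arrays are not counts, so their number, 3 or 4 per group, limits the precision.

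Intensities were quantile normalized, a pseudocount of 8 was added and log2 taken. Probe sets above the 40th percentile of mean log2 were kept, with the highest per gene. limma 3.58.1 in R 4.3.3 fitted 1 mean per group to all 28 arrays (19 residual degrees of freedom) with a trended empirical Bayes step, two-sided tests and Benjamini-Hochberg adjustment over 3185 genes. The code was tested on simulated data. There were 11 comparisons. Alternatives covered scaling, pseudocount, filter, probe set choice, array weights, accession run, a replicate block and leaving out arrays. Replicate numbers did not pair arrays: the correlation of deviations between same-numbered arrays of a day was -0.133 to 0.0858 over 12 pairs. Named genes were every called member, up to 12 by smallest adjusted p per comparison, and family ranges. The members and lists were chosen with earlier results of these data known. Promoters came from RefSeq (GRCr8). The marker lists also covered neurons and glia, mast cells, macrophages and granulocytes, lymphocytes, endothelium, fat tissue and exocrine pancreas.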

Additional observations from a re-analysis of the deposited data

Results flagged for a closer look

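Readings far from their group were looked for in the unfed newborns, the group with 4 arrays, since groups of 3 are too small for this rule. Among the 15 named genes, 1 such reading was found there. Slc37a4 read 914 in unfed newborn replicate 2, against 620 to 663 in the other 3 unfed arrays, a gap of 0.855 of the group's whole range. Chance alone gives such a gap in about 1 in 20 groups of this size.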

How the results depend on the processing

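With 3 arrays per group, calls near the threshold turned on single arrays and settings, and signal near the level threshold limits Slc16a6, Slc30a1 and the other dim members. Counts below are called members, and the causes of these shifts were not tested. For the mean of days (4 called) array weights gave 7, the accession run as a term 2, the second run alone 0 and the replicate block 2, with 2 to 5 when single arrays were left out. On day 1 array weights gave 2. On day 2 (1 called) the count was 0 with common median scaling, deposited scaling, a pseudocount of 2, no filter, every probe set, without both arrays that lost probe sets, the run as a term, the first run alone and the replicate block, and 2 with array weights, and 0 to 1 when single arrays were left out. On day 4 (2 called) it was 0 without both arrays that lost probe sets, with the run as a term and in the second run, and 0 to 3 when single arrays were left out. For the change of the difference between day 1 and day 4, array weights gave 1, and leaving out single arrays gave 0 to 1. For day 1 of formula and hypoxia against unfed, array weights gave 1. For breast-fed day 4 against day 1, deposited scaling gave 3 and array weights 2. For formula and hypoxia day 4 against day 1 (6 called), array weights gave 14, and single arrays left out gave 4 to 8. Among the 9 groups (16 called), array weights gave 29, the set without both arrays that lost probe sets 10, the first run 7 and the second 0, and single arrays left out gave 11 to 17. Slc19a1 reversed in the second run, at -0.11 against 0.38, but that run has both regimens on day 4 only, with 1 formula and hypoxia array, and day 4 over all arrays gave 0.20. Of 700 named-gene values with single arrays left out, 617 kept their call, 83 fell short of the threshold and 0 reversed; of 313 under other settings, 255 kept it, 57 fell short and 1 reversed. The replicate numbers do not pair the arrays, and with the block Slc19a1 stood at an adjusted p of 0.0556, Slc30a2 at 0.0633 and Slc3a1, between day 4 and day 1 of formula and hypoxia, at 0.0518. Deposited scaling moved the median of all genes by 0.11 on day 1, 0.14 on day 3, 0.30 for breast-fed day 4 against day 1, 0.11 for formula and hypoxia day 4 against day 1 and -0.20 for the change of the difference, and common median scaling moved it by -0.13 on day 3.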
